A study of Mus musculus with 17 samples.

Results

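The genes described here encode the proteins of the cytosolic ribosome. They were taken by symbol from the gene column of the deposited count files: every symbol made of Rpl or Rps and a digit, plus Rplp0, Rplp1, Rplp2 and Rpsa, without names holding "-ps" and without the 10 Rps6k kinases. This gave 87 of 24015 listed genes, of which 46 belong to the large subunit, 31 to the small subunit and 10 carry a longer name, most of them paralogs of a subunit gene. Messenger RNA of 17 libraries of CD-1 mouse cells had been sequenced. Induced extraembryonic endoderm stem (iXEN) cells, lines that arise under the OSKM reprogramming factors Pou5f1, Sox2, Klf4 and Myc, gave 4 libraries in XEN medium and 4 in ESC medium (numbers 1, 2, 6 and 9 in each). Extraembryonic endoderm stem (XEN) cells, lines of the endoderm that lines the yolk sac, gave 3 libraries in XEN medium and 3 in ESC medium (numbers 1, 2 and 7 in each). All iXEN and XEN cells had passed 10 times in ESC medium and then 5 times in the medium named. Mouse embryonic fibroblasts (MEF) gave 3 libraries after 3 passages in MEF medium. MEF thus differed from the other cells in medium and passages as well as in cell type, and these cannot be told apart. The labels name no driver of the factors, and how each iXEN line was cloned is not given in the sources used here.

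A ribosome has a small subunit, which reads the mRNA, and a large subunit, which joins the amino acids and carries a flexible stalk that recruits translation factors. Its proteins are needed in equal amounts, and their mRNAs are among the most abundant of growing cells. Most of these mRNAs begin with a C followed by an unbroken row of pyrimidines (the terminal oligopyrimidine, or TOP, motif), through which the kinase mTOR and the RNA-binding protein Larp1 set how much of each is translated.

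The bases around the annotated start of some of these genes are shown because the row of pyrimidines is the feature that defines this class of mRNA and because it sets near-identical copies side by side. Each line holds 30 bases read 5′ to 3′, 10 before the start and 20 from it on, with capitals for the first run of at least 5 C or T that opens with a C between 5 bases before and 10 bases after the start.
Rps2: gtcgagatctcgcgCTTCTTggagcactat
Rps19: agcggggtgtggagggCTCTCCCacgcggt
Rpl35a: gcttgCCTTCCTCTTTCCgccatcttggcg
Rpl38: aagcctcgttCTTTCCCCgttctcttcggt
Rpl13: tttcgcctgattttgattggcgtttgagat
Rpl4: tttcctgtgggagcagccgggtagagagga
Rpl22l1: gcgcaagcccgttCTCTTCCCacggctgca
Rps27l: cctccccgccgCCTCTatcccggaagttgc
Rpl39l: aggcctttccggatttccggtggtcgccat
Rps27: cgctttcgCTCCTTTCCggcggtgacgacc
Rps27rt: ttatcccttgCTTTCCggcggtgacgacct
The sequences are RefSeq's, on mouse build GRCm38.p6. Several starts are listed for Rps19 (3), Rpl35a (3) and Rps27l (2). For these the first start with such a run is shown, so the window was chosen by the run. Rps2 lies at chr17:24720053-24720082, Rps19 at chr7:24884903-24884932, Rpl35a at chr16:33056472-33056501, Rpl38 at chr11:114668570-114668599, Rpl13 at chr8:123102340-123102369, Rpl4 at chr9:64173377-64173406, Rpl22l1 at chr3:28805498-28805527, Rps27l at chr9:66946076-66946105 and Rpl39l at chr16:10170218-10170247, all on the plus strand. Rps27 lies at chr3:90213629-90213658 and Rps27rt at chr9:114982720-114982749, both on the minus strand. Rps2, Rps19, Rpl35a and Rpl38 hold such a run near an annotated start, of which the run of Rpl38 begins at the start itself. The windows of Rpl13 and Rpl4 hold none, so the windows shown are of both kinds. Whether an annotated start is where the mRNA begins in these cells was not tested. Of the 66 members with an entry, 36 (54.5%) held the run near an annotated start, against 27.1% of 16775 listed genes with an entry. In the window from 250 bases before to 50 bases after the start, searched on both strands, CCGGAAG occurred in 26 members (39.4%) and in 12.8% of all genes, TATAAA in 7 members (10.6%) and in 14.3% of all genes, and CACGTG in 6 members (9.09%) and in 9.18% of all genes. None of these 3 motifs contains another. These matches describe letters near annotated starts and were not set against the expression values.

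Depth ran from 20071567 to 45914262 counts in genes per library, and 3 counts in a library came to between 0.0653 and 0.149 CPM (counts scaled to the library's total) before TMM scaling. All 6 proliferation markers were at 1 CPM or more in every library. The summed level of 10 fibroblast markers was 37110 to 52268 CPM in MEF. It was 7746 CPM in XEN number 1 in ESC medium, 2216 CPM in iXEN number 2 and 1009 CPM in iXEN number 9 in XEN medium, and at most 342 CPM in the other iXEN and XEN libraries. In iXEN number 9 only 5 of the 10 reached 1 CPM, namely Col1a1, Col1a2, Col3a1, Pdgfrb and Lox. The summed level of 10 XEN markers was lowest, among XEN and iXEN libraries, in XEN number 7, at 4904 CPM in XEN medium and 3053 CPM in ESC medium, against 783 to 987 CPM in MEF. Lama1 was the largest part of the sums in number 7, at 3025 and 1445 CPM. The markers did not all go the same way. Sox7 was lowest in number 7 among these libraries (0.805 and 0.470 CPM), whereas Foxq1 (160 and 134 CPM) and, in ESC medium, Sox17 (372 CPM) were higher there than in any other number. iXEN number 9 in XEN medium also stood apart in the pluripotency markers Pou5f1 and Sox2, at 58.4 and 48.2 CPM. The other iXEN libraries in XEN medium had at most 1.38 and 0.0738 CPM of these. The rest of the 7 markers did not follow. Nanog, at 1.39 CPM, was within the range of numbers 1, 2 and 6, and Zfp42, at 1.36 CPM, was below theirs (3.38 to 8.83 CPM). Esrrb, Tdgf1 and Dppa5a were at most 0.0290 CPM in number 9. The 7 markers summed to 109 CPM in number 9 and to between 5.89 and 11.98 CPM in numbers 1, 2 and 6. These libraries are named below wherever leaving one out changed a result.

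Measured per coding length, subunit genes were listed over a wide range of levels. Mean levels over the 17 libraries were set per kilobase of coding sequence, since longer mRNAs give more reads. This length leaves out the untranslated ends, which also give reads, so it raises genes of short coding sequence most. Rpl41, which encodes the shortest of these proteins, led at 21838 CPM per kilobase. The stalk protein Rplp1 (4931), Rps24 (4899), Rps29 (3983) and Rpl23 (3742) followed. Rpl41 has only 75 nt of coding sequence. Without division by length, its mean in MEF was 1180 CPM, below Rplp0 (3076), Rpsa (2955) and Rpl4 (2420), so this order depends on the length used. The median of the 31 small subunit genes was 3311 CPM per kilobase in iXEN cells in XEN medium, 1454 in iXEN cells in ESC medium, 2181 in XEN cells in XEN medium, 2645 in XEN cells in ESC medium and 1636 in MEF. For the 46 large subunit genes the same medians were 3073, 1179, 2034, 2267 and 1445 CPM per kilobase. The medians of both subunits had the same order over the 5 groups. They rest on group means. The mean of XEN cells in ESC medium includes number 7, where the family took 15.7% of counts, against 8.67% and 4.62% in numbers 1 and 2. The median share in XEN cells was 8.67% in ESC medium and 8.89% in XEN medium.

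A few members were listed at or near 0, among them genes of proteins that every ribosome holds. Rpl26 and Rps27rt had 0 counts in all 17 libraries, and Rps27, Rpl30 and Rpl34 averaged 4.20, 1.66 and 1.32 CPM per kilobase. These values are not read as levels here, but the genes among them that passed the filter remain in the counts of members below. Of the 50-base stretches of Rps27 mRNA in the GENCODE annotation, 98.6% also occurred in Rps27rt, as the shared letters of their start windows show on a small scale. For Rpl26, Rpl34 and Rpl30 the share found in any other annotated transcript was 56.9%, 33.3% and 25.4%. Over all 87 members it ranged from 0% to 98.6%, with a median of 38.5%, and 83 members shared at least 1 such stretch. A read from a shared stretch can lack a unique position, and such reads are counted for no gene. Whether this bears on the genes near 0 was not tested. Among the 76 subunit genes with a level above 0, the level per kilobase did not follow this share (Pearson r of -0.05 across genes, a description, since genes are not replicates). Most of these genes are abundant and Rpl26 is left out, so this r gives no answer for the genes near 0.

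The family took up a changing part of the mRNA counts. Its share of all counts in genes was 8.08%, 9.08%, 13.8% and 17.6% in iXEN numbers 1, 2, 6 and 9 in XEN medium, and 4.38%, 5.33%, 7.99% and 4.51% in the same numbers in ESC medium. In XEN numbers 1, 2 and 7 it was 8.36%, 10.0% and 8.89% in XEN medium, and 8.67%, 4.62% and 15.7% in ESC medium. In MEF it was 6.25%, 7.09% and 6.27%. All 4 iXEN libraries in XEN medium were above all 4 in ESC medium, the narrowest margin being 8.08% against 7.99%. The highest share, that of iXEN number 9, is from the library with the highest Pou5f1 and Sox2, whose part in it was not tested. XEN libraries in ESC medium ranged from below MEF to the second highest value of the series. In bulk RNA, a change in a family's share can come from fewer cells of a type or from less RNA per cell, and these cannot be told apart.

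**Figure D1:**
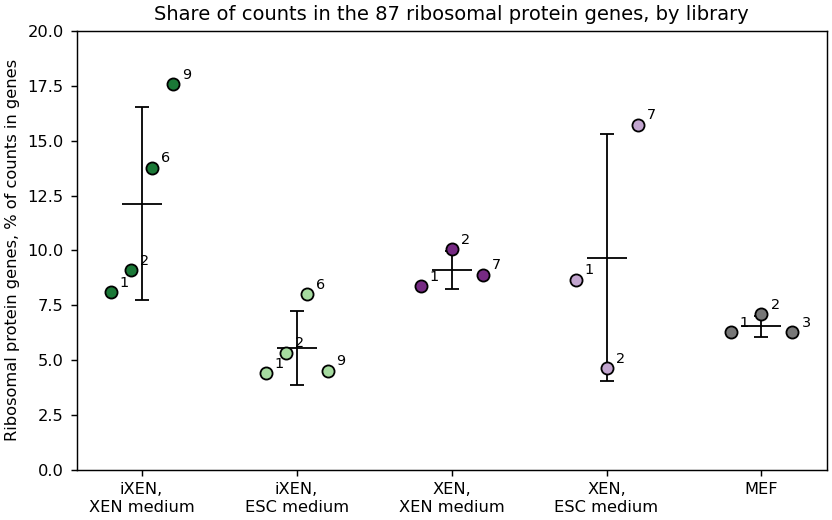
Share of counts in genes (percent) that fell in the 87 ribosomal protein genes, 1 point per library, numbered as labelled, with the group mean and SD. iXEN libraries in XEN medium lie between 8.08% and 17.6%, those in ESC medium between 4.38% and 7.99%, and XEN number 7 in ESC medium stands at 15.7%.

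The first comparison set iXEN cells in ESC medium against MEF. A gene was called when its edgeR adjusted p over all genes tested was under 0.05, and "rose" and "fell" are used only of called genes. Few members passed: of 82 tested, 1 rose and 2 fell, where 20.8% of all 14352 genes tested rose and 25.9% fell. The median log2 fold change of the members was -0.12 (middle 50% from -0.38 to 0.09), and 0.03 over all genes; 32 members were positive (background 51.3%). At an unadjusted p under 0.05, 2 members were higher (background 25.2%) and 7 lower (background 28.6%). The groups did not overlap for 3 members that were higher (background 23.3%) and 6 that were lower (background 31.3%).

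The gene that rose was Rps4l, a copy of the small subunit gene Rps4x that RefSeq lists as a transcribed pseudogene. It had 58.0, 140.2, 151 and 203 CPM in iXEN numbers 1, 2, 6 and 9, against 35.0, 48.3 and 44.8 CPM in MEF (log2 fold change 1.72, SE 0.39, edgeR adjusted p = 0.00667). Every iXEN library was above every MEF library. Its parent Rps4x, an X-linked gene, had 955, 1035, 2002 and 932 CPM in iXEN cells and 1703, 1707 and 1718 CPM in MEF (log2 fold change -0.43, 95% interval -1.14 to 0.27), and number 6 alone was above MEF. Of the 50-base stretches of Rps4l, 14.9% were shared with another annotated transcript.

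Rpl39l, a paralog of the large subunit protein Rpl39 that is best known from the testis, fell. It had 0.462, 1.16, 0.184 and 0 CPM in iXEN cells, against 5.15, 5.57 and 3.83 CPM in MEF (log2 fold change -3.33, SE 0.96, edgeR adjusted p = 0.0204). All 4 iXEN values were below the MEF values, and number 9 had 0 counts. Rpl39l held no stretch shared with another annotated transcript. Its parent Rpl39 had 151, 305, 326 and 255 CPM in iXEN cells and 232, 424 and 446 CPM in MEF (log2 fold change -0.47, 95% interval -1.22 to 0.27), with overlapping groups.

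Rplp1, a stalk protein that pairs with Rplp2 and helps to recruit elongation factors, also fell. It had 583, 862, 926 and 822 CPM in iXEN cells, against 1229, 2103 and 1679 CPM in MEF (log2 fold change -1.03, SE 0.26, edgeR adjusted p = 0.0105), and the groups did not overlap. The stalk base protein Rplp0, to which these pairs bind, had 1315, 1799, 2667 and 1300.0 CPM in iXEN cells and 3193, 3366 and 2668 CPM in MEF (log2 fold change -0.76, SE 0.30, edgeR adjusted p = 0.0675). Its groups did not overlap either, by the margin of number 6, but it did not pass the test. Rplp2 had 187, 335, 425 and 301 CPM in iXEN cells and 224, 435 and 332 CPM in MEF (log2 fold change -0.05, 95% interval -0.78 to 0.69), with groups that overlapped.

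The number of calls against MEF depended on single libraries. Without iXEN number 6, the library with the highest share of family counts in its group, 1 member was called higher and 20 lower, where 26.1% of all genes were called higher and 30.3% lower. The 20 included Rplp0, Rpsa, Rps2, Rps20, Rps4x, Rpl3, Rpl5, Rpl10 and Rpl10a. Without MEF number 1 or number 2, Rpl39l had an adjusted p of 0.0540 and 0.0596, and 1 other member, Rps2, was called without MEF number 1. The sign of the family's median turned on single libraries too: 7 of 82 members were positive without iXEN number 6 (median -0.34) and 42 of 82 without iXEN number 1 (median 0.01). With all 17 libraries in one fit, Rps4l and Rplp1 no longer passed the edgeR test (adjusted p = 0.155 and 0.163), and Rpl39l did (adjusted p = 0.0461).

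XEN cells in ESC medium, lines taken from the embryo rather than induced, were set against MEF in the same way. Of 81 members tested, 0 rose and 1 fell, where 11.4% of 14001 genes rose and 13.7% fell. At an unadjusted p under 0.05, 5 members were higher (background 20%) and 1 lower (background 21.5%), and DESeq2 called 6 higher, Rpl13, Rpl36al, Rps19bp1, Rps24, Rps27l and Rps4l (background 20%), and 1 lower (background 20.1%). The member that fell was again Rpl39l, at 0.138, 0.0895 and 0.652 CPM in XEN numbers 1, 2 and 7, against 5.15, 5.57 and 3.83 CPM in MEF (log2 fold change -3.89, SE 0.84, edgeR adjusted p = 0.0222). Every XEN library was below every MEF library. In XEN numbers 1 and 2 these levels came to about 3 counts or fewer. Here too Rpl39l passed the filter through the MEF libraries alone, which are the same in both comparisons. Its second fall is thus no separate support for the first.

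The other members stood mostly above MEF without passing the test. The median log2 fold change was 0.75, against -0.03 over all genes, and 76 of 81 were positive (background 49.0%). The groups did not overlap for 6 members that were higher (background 21.6%), Rpl13, Rpl36al, Rpl7l1, Rps19bp1, Rps24 and Rps27l, and for Rpl39l, which was lower (background 31.7%). Rps24, a small subunit protein mutated in some human Diamond-Blackfan anemia, had 1187, 1018 and 5872 CPM in XEN numbers 1, 2 and 7, against 755, 914 and 856 CPM in MEF (log2 fold change 1.76, 95% interval -0.07 to 3.58). Number 7 stood far above the other XEN libraries, which lay closer to MEF but above it. Rps19bp1, which binds Rps19 and is not itself a part of the ribosome, had 24.6, 20.4 and 65.5 CPM in XEN cells and 9.18, 13.1 and 12.2 CPM in MEF (log2 fold change 1.76, SE 0.52, edgeR adjusted p = 0.0518).

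This pattern turned on XEN number 7, and the calls on single libraries. Without number 7 the median log2 fold change was 0.16, with Rps19bp1 called higher (background 16.4%) and Rpl39l lower (background 17.4%). Without number 1, which held fibroblast transcripts, Rpl39l was the 1 member called, and the median was 0.89. Without number 2, the library with the lowest family share, 24 members were called higher and 1 lower, where 22.1% of all genes were called higher and 19.7% lower. Without any 1 of the 3 MEF libraries, 0 members were called, and Rpl39l had an adjusted p of 0.0783 to 0.0898. With all 17 libraries in one fit its adjusted p was 0.0504, and Rpl36al and Rps19bp1 were called higher (background 14.3%).

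In XEN medium, both kinds of endoderm cell stood above MEF for many members. In iXEN cells 25 of 83 members tested were called higher and 1 lower, where 17.7% of all genes were called higher and 14.9% lower (median of the members 1.18, of all genes 0.06). In XEN cells 34 of 83 were called higher and 1 lower, where 23.0% of all genes were called higher and 24.5% lower (median of the members 0.56, of all genes 0.02). Both counts of higher members include Rpl30, at most 0.301 CPM in MEF, which passed the filter through the XEN medium libraries alone. Rpl39l was the lower one in both cell types, and it again passed the filter through the MEF libraries alone. It had 0.076, 0.541, 0.0301 and 0.029 CPM in iXEN numbers 1, 2, 6 and 9, and 0.147, 0.0275 and 0.0393 CPM in XEN numbers 1, 2 and 7, against 5.15, 5.57 and 3.83 CPM in MEF. iXEN number 2, the highest of these, is the library with 2216 CPM of fibroblast markers, whose part in its Rpl39l value was not tested.

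Some members were named in both lists of higher genes, among them Rps25, a small subunit protein known for its part in translation from internal entry sites. Rps25 had 1145, 988, 2036 and 2171 CPM in iXEN cells and 1143, 1523 and 989.7 CPM in XEN cells in XEN medium, against 437, 586 and 469.6 CPM in MEF. The lowest endoderm value was well above the highest MEF value. Rps14, a small subunit protein lost in human 5q- syndrome, had 1403, 1622, 2649 and 3415 CPM in iXEN cells and 1608, 1674 and 1123 CPM in XEN cells, against 633, 724 and 722 CPM in MEF, again with no overlap. With the trend on coding length among other genes removed from each library, an alternative chosen after seeing the data, 4 of 83 members were called higher and 1 lower in iXEN cells (background 15.3% and 13.5%), and 12 of 83 higher and 4 lower in XEN cells (background 21.4% and 23.4%). The members' shares were then below the background in both cell types and both directions. Rps14 and Rps25 were called in both cell types. These comparisons share the MEF libraries, so their lists are not independent of each other.

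iXEN and XEN cells were next compared within a medium, which asked how alike the induced and the embryo-derived lines were. In ESC medium 0 of 81 members passed the edgeR test, as did 0% of 12944 genes. The members' median log2 fold change was -0.93, against -0.00 over all genes, and 2 members were positive (background 49.8%). At an unadjusted p under 0.05, 0 members were higher (background 3.43%) and 12 lower (background 10.2%). DESeq2 called 2, Rpl13 and Rps2, both lower (background 2.64%). Rpl13, a large subunit protein, had 154, 494, 603 and 267 CPM in iXEN numbers 1, 2, 6 and 9 and 1292, 903 and 2686 CPM in XEN numbers 1, 2 and 7 (log2 fold change -2.14, SE 0.57, edgeR adjusted p = 0.316). Rps2, a small subunit protein at the mRNA entry side, had 584, 679, 1118 and 514 CPM in iXEN cells and 2063, 1467 and 3048 CPM in XEN cells (log2 fold change -1.63, SE 0.42, edgeR adjusted p = 0.315). The groups did not overlap for these 2 members and for Rps19bp1, which were lower in iXEN cells (background 6.16%), and for 0 that were higher (background 3.77%). Without XEN number 7 the median of all members was -0.17.

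In XEN medium the members stood on the other side: 81 of 82 were higher in iXEN cells (background 53.6%), with a median log2 fold change of 0.53 (all genes 0.04). Here 0 members passed the edgeR test (0% of 13263 genes did), 0 had an unadjusted p under 0.05 (background 2.04% higher and 2.06% lower) and DESeq2 called 0. The groups did not overlap for Rps27, which is near 0, among higher genes (background 2.10%) and for 0 lower ones (background 2.39%). Rpl22l1 was the exception in sign, at 183, 109, 71.3 and 228 CPM in iXEN cells and 238, 152 and 148 CPM in XEN cells (log2 fold change -0.26, 95% interval -1.26 to 0.74). Without iXEN number 9 the median was 0.26. With the replicate number as a block the direction turned, with 13 of 82 members positive and a median of -0.21. That fit rests on numbers 1 and 2 alone, the numbers that both cell types share, and these are not known to be pairs. The intervals are wide, so these values do not show that iXEN and XEN cells were alike.

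The medium itself was tested within each cell type. In XEN cells 0 of 82 members passed the edgeR test between XEN and ESC medium (0% of 13241 genes did), 0 had an unadjusted p under 0.05 (background 2.49% higher and 3.14% lower) and DESeq2 called 0. The median log2 fold change of the members was -0.21 (all genes -0.04), and 23 were positive (background 48.0%). The groups did not overlap for Rpl34 and Rpl7l1 among higher genes (background 7.42%) and for 0 lower ones (background 5.13%). The 3 numbers differed in direction. The family's share in XEN medium over that in ESC medium was 0.964 for number 1, 2.17 for number 2 and 0.565 for number 7. In number 1, 49 of 83 members were higher in XEN medium (background 52.4%). In number 2, 81 were (background 49.9%), and in number 7 only 4 were (background 52.0%). Rpl30, Rpl34 and Rpl7l1 were higher in XEN medium in all 3 pairs, 3 of 82 members where 19.3% of all genes were, and 0 were lower in all 3, where 15.8% of all genes were. Rpl30 and Rpl34 are among the genes at about 1 CPM. Rpl7l1 had 147, 222 and 153 CPM in XEN medium and 122, 116 and 146 CPM in ESC medium. Without the ESC medium library of number 7 the members' median was 0.47, and with the number as a block it was 0.032, with 45 of 82 positive.

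In iXEN cells the members lay to one side. All 82 tested members had a higher fitted level in XEN medium than in ESC medium, where 54.2% of all 12920 genes did, with a median log2 fold change of 1.29 (middle 50% from 1.01 to 1.63) against 0.08 over all genes. The main test called 0 members (0% of all genes). At an unadjusted p under 0.05, 66 members were higher (background 13.4%) and 0 lower. DESeq2 called 47 of 82 members higher (background 7.18%) and 0 lower. Rpl30, which is listed near 0, is among the 47. For 31 members every XEN medium library was above every ESC medium library (background 6.21%), and for 0 every one was below (background 5.81%). The large and the small subunit had like medians, 1.29 for 45 genes and 1.25 for 31 genes.

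The members with the smallest p, Rps2, Rps29, Rpl35a and Rpl13, are named here after their values were seen. Rps2 had 3932, 2425, 4013 and 4514 CPM in XEN medium in numbers 1, 2, 6 and 9, against 584, 679, 1118 and 514 CPM in ESC medium (log2 fold change 2.38, SE 0.36, edgeR adjusted p = 0.0581). Even the lowest XEN medium library was above the highest ESC medium library by more than the whole ESC medium range. Rpl13 had 1308, 1421, 3697 and 3888 CPM in XEN medium, against 154, 494, 603 and 267 CPM in ESC medium (log2 fold change 2.80, SE 0.56, edgeR adjusted p = 0.0585).

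Rps29, a short small subunit protein with a zinc-binding motif, had 637, 657, 1406 and 1343 CPM in XEN medium and 198, 269.5, 335 and 317 CPM in ESC medium (log2 fold change 1.88, SE 0.36, edgeR adjusted p = 0.0581). Rpl35a, a large subunit protein that is also mutated in some human Diamond-Blackfan anemia, had 628, 1194, 1496 and 1455 CPM in XEN medium and 353, 398, 475 and 332 CPM in ESC medium (log2 fold change 1.64, SE 0.33, edgeR adjusted p = 0.0585). In all 4 genes numbers 6 and 9 were the highest XEN medium libraries. The start windows of Rps2 and Rpl35a hold a pyrimidine run and that of Rpl13 does not.

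The members with the smallest differences were Rpl29 (0.45), Rps7 (0.54), Rpl7l1 (0.56), Rpl10 (0.58), Rpl7a (0.62) and Rpl4 (0.63), as log2 fold changes. Rpl4, a large subunit protein that reaches into the exit tunnel, had 2808, 2017, 3050.1 and 2996 CPM in XEN medium and 1877, 1970.4, 1758 and 1516 CPM in ESC medium. All 4 XEN medium values were above the ESC medium values.

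The calls in this comparison came and went with single libraries and with the fit, while the median stayed above 1 whichever library was left out. Without the ESC medium library of iXEN number 6, 10 members were called higher (background 1.23%). Without the XEN medium library of number 2, 11 were (background 1.45%). With all 17 libraries in one fit, 6 were called: Rpl13, Rpl22l1, Rpl35, Rps19bp1, Rps2 and Rps27l (background 1.24%). The median was 1.03 without the XEN medium library of number 9. It was 1.19 without numbers 2 and 9 in XEN medium, the iXEN libraries with fibroblast transcripts, a choice made after seeing the data.

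**Figure D2:**
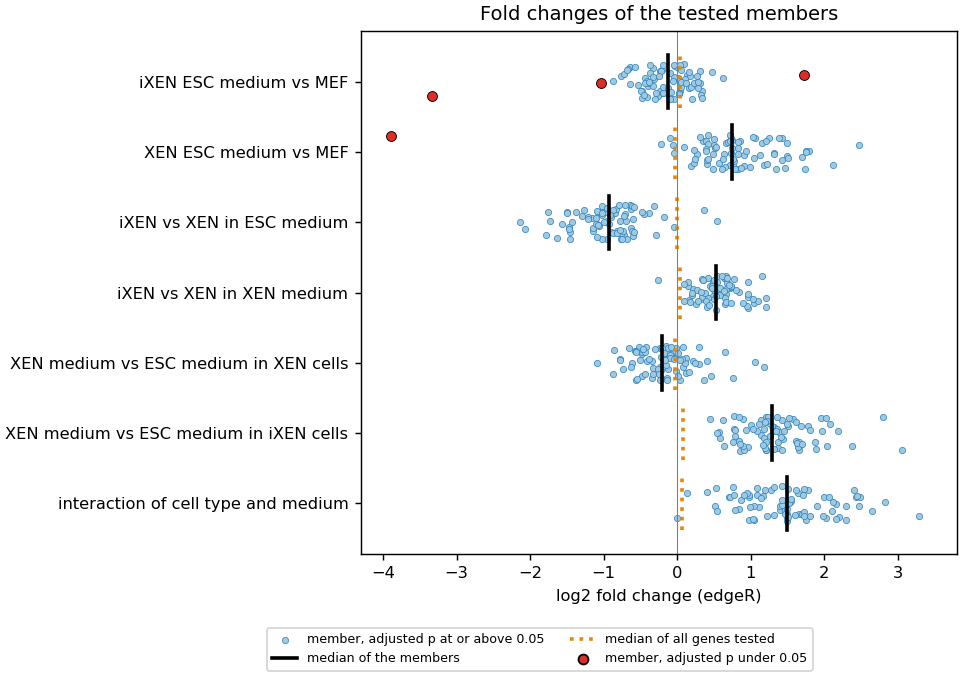
edgeR log2 fold change of each tested member in the 7 comparisons (horizontal axis; first-named group over the second), with the median of the members (solid bar) and of all genes tested (dotted bar). Calls, in red, are seen against MEF alone, while the members lie to the right as a body for XEN over ESC medium in iXEN cells, with a median of 1.29.

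The difference between the cell types in their response to medium was tested as an interaction. A positive value means that the log2 fold change for XEN over ESC medium was larger in iXEN than in XEN cells. Of 83 members tested, 82 were positive (background 52.6%), with a median of 1.49 (all genes 0.07), 37 were higher at an unadjusted p under 0.05 (background 10.8%) and 0 passed the edgeR test (0% of 14357 genes did). DESeq2 called 2, Rpl13 and Rps2 (background 3.02%). The edgeR value of Rpl13 was 3.29 (SE 0.85, adjusted p = 0.221), and that of Rps2 was 2.29 (SE 0.66, adjusted p = 0.221). Without the ESC medium library of XEN number 7 the median was 0.68.

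The members differed by length. The 50 members of at most 500 nt of coding sequence had a median log2 fold change of 1.48 for XEN over ESC medium in iXEN cells, and the 31 longer ones 0.97. Outside the family, 969 genes of at most 500 nt had a median of 0.76 and 11226 longer ones 0.03. The same split held for XEN cells over MEF in ESC medium, with 0.91 for short and 0.49 for long members, and 0.75 for short and -0.09 for long other genes. Over the 17 libraries the SD of log2 CPM was lowest in Rpl4 (0.30), a gene of 1257 nt. SD and log2 coding length had a Pearson r of -0.60, a description across genes that share their libraries. It covers the members that passed the filter, without Rps4l, which has no coding length. Rpl39l (153 nt, SD 2.15) and Rpl30 (345 nt, SD 1.38), both of few counts, are among them.

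With the same trend on coding length removed, the median in iXEN cells for XEN over ESC medium was 0.69, and 81 of 82 members were positive. For XEN cells over MEF it was 0.06, for iXEN over XEN cells in ESC medium -0.29, and for the interaction 0.59. The share of reads without a unique position also varied, from 13.7% to 24.6%. Other genes of at most 500 nt took 8.81% to 14.7% of the other genes' counts in iXEN cells in XEN medium and 6.12% to 7.96% in ESC medium. The part of length and of library make-up in these results was not tested.

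**Figure D3:**
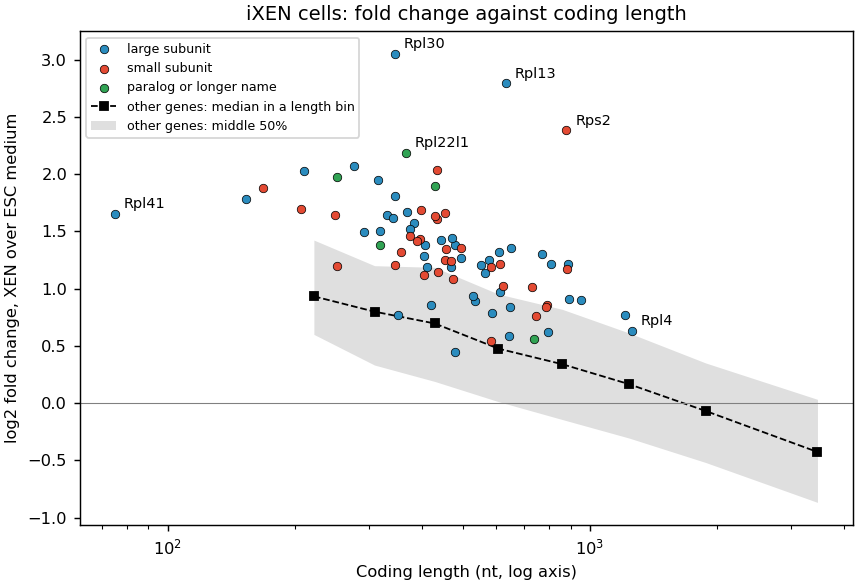
edgeR log2 fold change for XEN over ESC medium in iXEN cells (vertical) against coding length in nucleotides (log axis), 1 point per tested member, with the median and the middle 50% of other genes in bins of length. Members and other genes both slope down with length, and most members lie above the median of other genes of their length; Rpl4, of 1257 nt, is at 0.63.

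**Figure D4:**
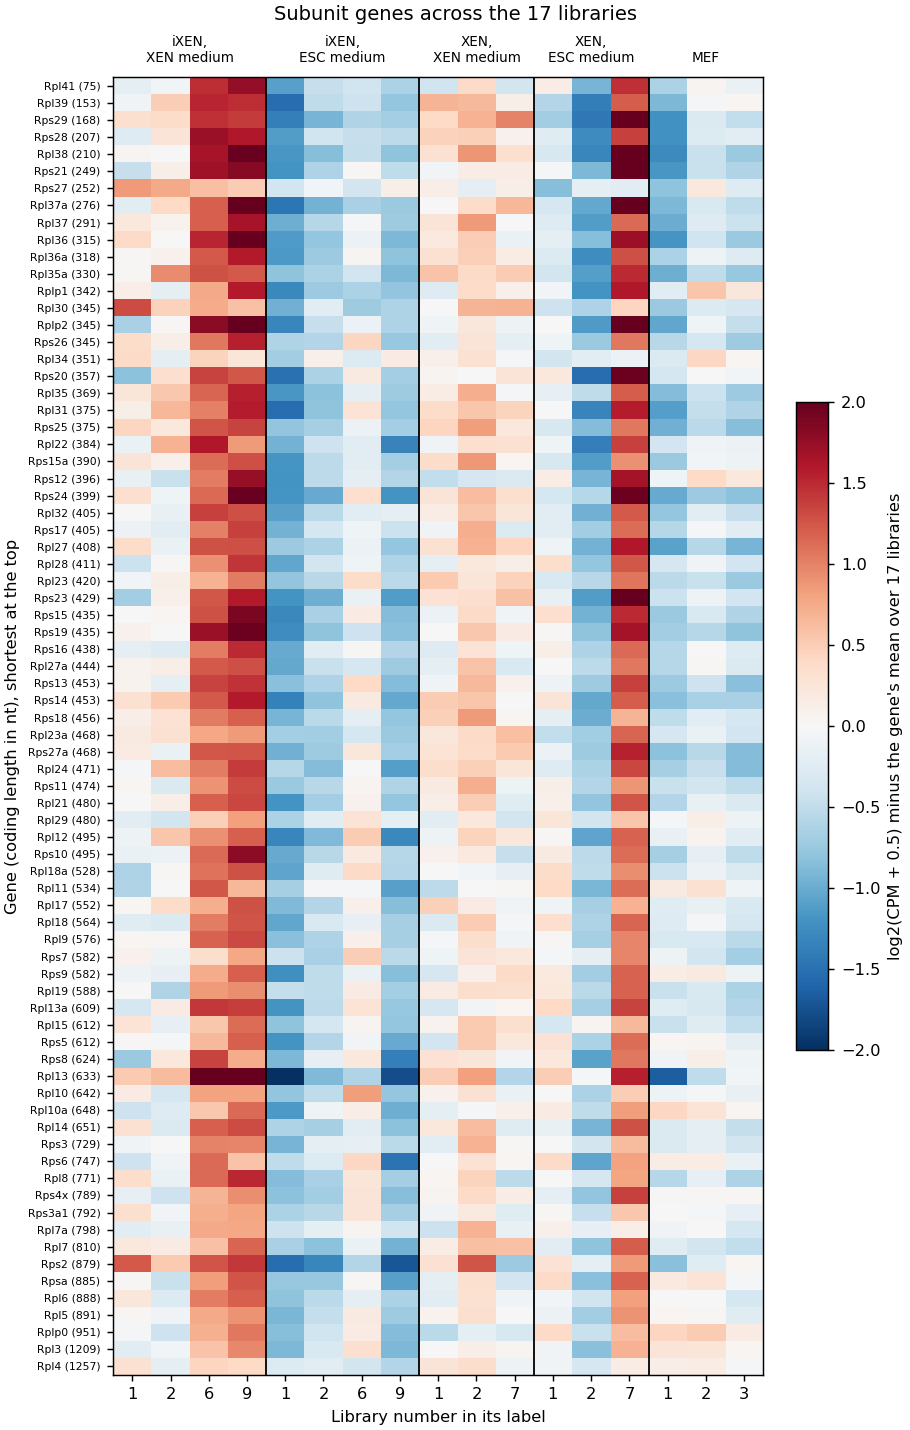
Deviation of log2 CPM (with a small offset of 0.5 CPM) of each subunit gene from its mean over the 17 libraries, genes ordered by coding length with the shortest at the top. XEN number 7 in ESC medium and iXEN numbers 6 and 9 in XEN medium are high over nearly the whole family, most of all among the short genes, and Rps27 and Rpl34, at about 1 CPM, follow the others least among the subunit genes.

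The paralogs, some of which can replace a subunit protein in certain tissues, differed in how far they followed the family. Over the 17 libraries Rpl36al, Rps27l and Rpl22l1 had an r with the family mean of 0.90, 0.84 and 0.74, and Rpl7l1, Rps4l and Rpl39l had 0.59, 0.41 and -0.29. Rpl22l1, a paralog of the large subunit protein Rpl22, had 183, 109, 71.3 and 228 CPM in iXEN cells in XEN medium, against 14.8, 27.8, 51.2 and 38.7 CPM in ESC medium (log2 fold change 2.19, SE 0.48, edgeR adjusted p = 0.0648). All XEN medium libraries were above all ESC medium libraries. In XEN cells it had 238, 152 and 148 CPM in XEN medium and 36.1, 35.4 and 161 CPM in ESC medium (log2 fold change 1.18, 95% interval -0.38 to 2.73), where number 7 in ESC medium reached the XEN medium values. MEF had 40.0, 57.2 and 50.5 CPM. Rpl22l1 was among the members called higher than MEF in XEN medium in both cell types. It shares 57.3% of its 50-base stretches with other annotated transcripts.

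Rpl22 itself had 318, 563, 1057 and 632 CPM in iXEN cells in XEN medium and 181, 261, 297 and 138 CPM in ESC medium (log2 fold change 1.57, 95% interval 0.67 to 2.48). In XEN cells it had 332, 442 and 428 CPM in XEN medium and 329, 135 and 898 CPM in ESC medium, and MEF had 266, 332 and 321 CPM. In iXEN cells parent and paralog were thus both higher in XEN medium by the fitted values, without either passing the edgeR test.

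Rps27l, a paralog of Rps27 known in human cells as a p53 target, had 544, 172, 728 and 559 CPM in iXEN cells in XEN medium, against 148, 108, 153 and 107 CPM in ESC medium (log2 fold change 1.97, SE 0.42, edgeR adjusted p = 0.063). It had 209, 489.6 and 224 CPM in XEN cells in XEN medium and 157, 149 and 458 CPM in ESC medium (log2 fold change 0.24, 95% interval -1.14 to 1.61), and 88.2, 140.1 and 87.5 CPM in MEF. MEF overlapped with iXEN cells in ESC medium alone. Rps27 was listed at 0.321 to 2.16 CPM over the 17 libraries and gives no comparison.

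Rpl36al, a paralog of the large subunit gene Rpl36a, had 269.8, 221, 663 and 748 CPM in iXEN cells in XEN medium, 160.5, 158, 258 and 170.0 CPM in iXEN cells in ESC medium, 255, 451 and 372 CPM in XEN cells in XEN medium and 243, 176 and 1125 CPM in XEN cells in ESC medium, against 109, 153 and 111 CPM in MEF. All 14 endoderm libraries were above the 3 MEF libraries. For iXEN cells in ESC medium over MEF the adjusted p was 0.0692 (log2 fold change 0.62). The parent Rpl36a had 424, 439.6, 971 and 1244 CPM in iXEN cells in XEN medium and 187, 251, 432 and 237 CPM in ESC medium, 512, 581 and 462 CPM in XEN cells in XEN medium and 345, 176 and 1016 CPM in ESC medium, and 267, 388 and 348 CPM in MEF, so that both cell types lay above MEF in XEN medium and overlapped with it in ESC medium.

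Rps4l, which rose over MEF in iXEN cells in ESC medium, was uneven elsewhere. It had 312, 54.7, 541 and 36.9 CPM in iXEN numbers 1, 2, 6 and 9 in XEN medium, with numbers 2 and 9 near the MEF level. In XEN cells it had 69.4, 266 and 134 CPM in XEN medium and 272, 36.9 and 364 CPM in ESC medium, where number 2 was near the MEF level. iXEN numbers 2 and 9 held fibroblast transcripts, and so did XEN number 1 in ESC medium, at 272 CPM of Rps4l. The part of such transcripts in these values was not tested. With XEN medium libraries in place of ESC medium, its log2 fold change over MEF in iXEN cells was 2.51 (adjusted p = 0.0720).

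Rpl7l1, a relative of a yeast assembly factor of the large subunit, had 239.7, 149, 197 and 157 CPM in iXEN cells in XEN medium and 118, 109.5, 171 and 109 CPM in ESC medium, against 99.7, 103 and 78.9 CPM in MEF. All iXEN libraries were above all MEF libraries. Its parent by name, Rpl7, had 1699, 1658, 2210.1 and 3308 CPM in iXEN cells in XEN medium and 941, 838, 1350.0 and 768 CPM in ESC medium, 1629.7, 2235 and 2223 CPM in XEN cells in XEN medium and 1263, 842 and 3427 CPM in ESC medium, and 1243, 1144 and 1051 CPM in MEF. Rpl3l, a paralog of Rpl3 made in striated muscle, and Rpl10l, a paralog of Rpl10 made in the testis, were at most 0.376 and 0.0783 CPM and passed no filter.

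**Figure D5:**
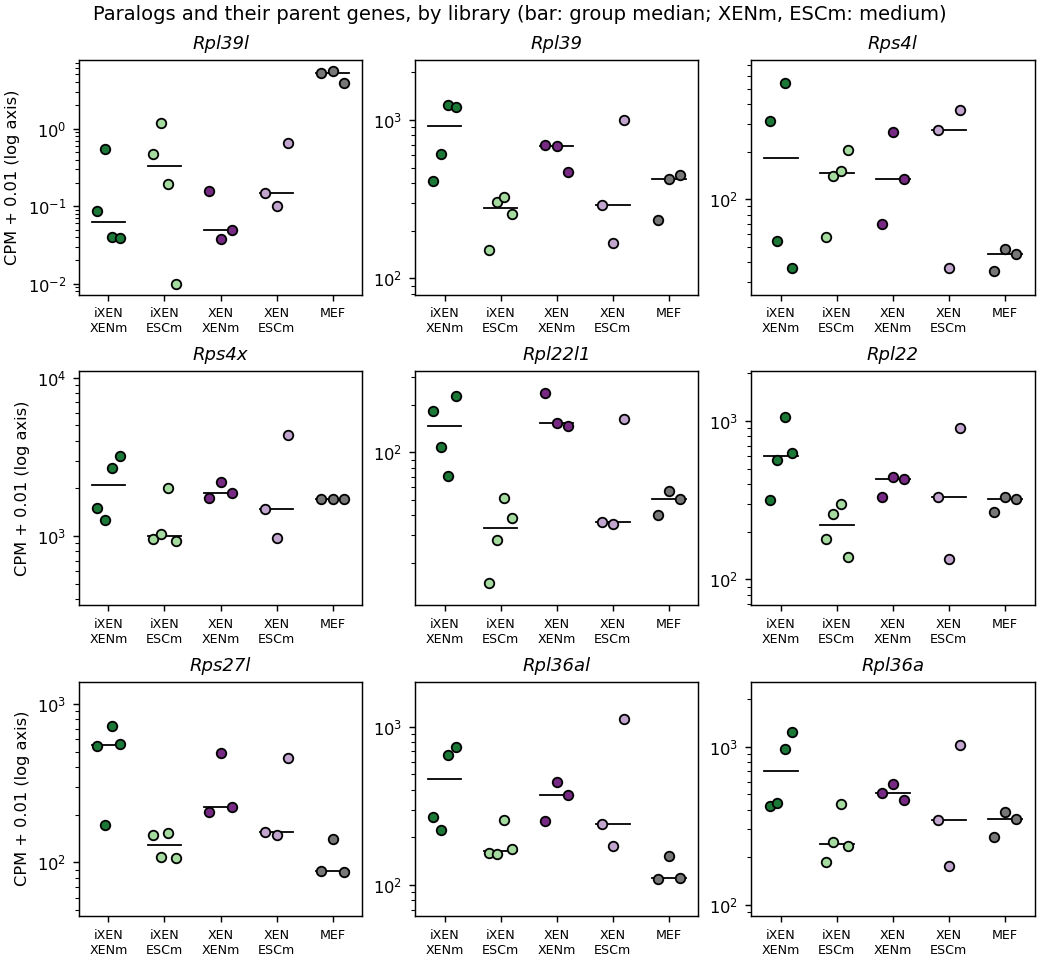
CPM (plus 0.01, log axis) of 5 paralogs and 4 parent genes, 1 point per library, with the group median as a bar. Rpl39l is highest in the 3 MEF libraries, at 3.83 to 5.57 CPM, and Rpl22l1 lies higher in XEN medium than in ESC medium in all 4 against 4 iXEN libraries.

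The members with known roles outside plain translation also had higher fitted values in XEN medium in iXEN cells. Rps6, the substrate of the S6 kinases, had 979.7, 1240.1, 2861 and 1944 CPM in XEN medium and 916, 1081, 1738 and 469.9 CPM in ESC medium (log2 fold change 0.76, 95% interval -0.29 to 1.81), with overlapping groups. Rpsa, also known as the laminin receptor precursor, had 2705, 1963, 4786 and 6386 CPM in XEN medium and 1579.9, 1586, 2727 and 1260.1 CPM in ESC medium (log2 fold change 1.17, 95% interval 0.18 to 2.17), again overlapping. Rpl5 and Rpl11, which bind the p53 ligase Mdm2 when ribosome assembly is disturbed, had log2 fold changes of 0.91 and 0.89. Rpl11 had 481, 738, 1729 and 1164 CPM in XEN medium and 464, 722, 720.5 and 344 CPM in ESC medium, with number 1 within the ESC medium range.

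Rps19, the protein most often mutated in human Diamond-Blackfan anemia, had 838, 786, 2625 and 3072 CPM in XEN medium and 334, 452, 592 and 446 CPM in ESC medium (log2 fold change 2.04, SE 0.50, edgeR adjusted p = 0.0776), with no overlap. Rpl38, which in the mouse is needed for translation of a subset of Hox mRNAs, had 394, 379.8, 1181 and 1486 CPM in XEN medium and 168, 209, 271 and 215 CPM in ESC medium (log2 fold change 2.03, SE 0.49, edgeR adjusted p = 0.0744), also with no overlap. Over MEF in ESC medium, Rpl38 had a log2 fold change of 0.01 in iXEN cells and 1.79 in XEN cells, where number 7, at 1702 CPM, stood far above 303 and 153 CPM in the other 2.

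The other members with such roles showed the same side. Rps3, which also acts in DNA repair, had 1315, 1371, 2769 and 2714 CPM in XEN medium and 726, 1227, 1236 and 948 CPM in ESC medium (log2 fold change 1.01, 95% interval 0.21 to 1.81). Rpl13a, which in human myeloid cells can leave the ribosome to repress inflammatory mRNAs, had 1238, 1765, 4193 and 4066 CPM in XEN medium and 687, 1091, 1896 and 929 CPM in ESC medium (log2 fold change 1.32, 95% interval 0.22 to 2.42). Rps27a, made as a fusion with ubiquitin, had 1514, 1236, 3190.0 and 3221 CPM in XEN medium and 697, 824, 1584 and 841 CPM in ESC medium (log2 fold change 1.24, 95% interval 0.28 to 2.20). Number 6 was the highest ESC medium library for all 3, and for Rpl13a and Rps27a it lay above numbers 1 and 2 in XEN medium.

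Rpl23, another partner of Mdm2, had 1389, 1562, 2339.7 and 2968 CPM in XEN medium and 835, 982, 1846 and 995 CPM in ESC medium (log2 fold change 0.85, 95% interval 0.01 to 1.69). Rps20, a small subunit protein of the head, had 375, 837, 1698 and 1581 CPM in XEN medium and 237, 427, 753 and 414 CPM in ESC medium (log2 fold change 1.32, 95% interval 0.17 to 2.48). Rpl10a had 699, 774, 1342 and 2028 CPM in XEN medium and 416, 869, 1014 and 469 CPM in ESC medium (log2 fold change 0.84, 95% interval -0.16 to 1.84). Each of these 3 intervals covers a wide span, and none of these genes passed the edgeR test.

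The parents of the paralogs Rpl3l and Rpl10l, Rpl3, which shapes the centre where peptide bonds form, and Rpl10, a protein that joins the large subunit last, were abundant. Rpl3 had 1553, 1722, 2649.5 and 3509.9 CPM in XEN medium and 966, 1450.5, 2250.1 and 958 CPM in ESC medium in iXEN cells (log2 fold change 0.77, 95% interval -0.13 to 1.68), and 2133, 2129 and 1841 CPM in MEF. Rpl10 had 1590.2, 1126, 2491 and 2488 CPM in XEN medium and 823, 1006, 2556 and 831 CPM in ESC medium (log2 fold change 0.58, 95% interval -0.44 to 1.61), and 1327, 1388 and 1291 CPM in MEF. Number 6 in ESC medium was the highest of its group for both.

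The members varied together over the libraries. Over the 17 libraries the median pairwise Pearson r of log2 CPM was 0.84 among the 83 members that passed the filter, a description that rests on shared libraries and depth. Rpl39l (r of -0.29 with the family mean), Rps27 (0.38), Rps4l (0.41), Rpl34 (0.48) and Rpl7l1 (0.59) followed the rest least. The genes outside the family whose pattern was most like the family mean over the 17 libraries were Eef1b2, an elongation factor subunit (r of 0.96), Bola2 (0.96), Hddc2 (0.95), Fau, which encodes a ubiquitin-like fusion with the small subunit protein Rps30 (0.95), and Bod1 (0.95).

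Other genes of the translation machinery were counted from lists taken from general knowledge. Of 22 tested translation partners whose mRNAs also begin with a pyrimidine run, 0 rose and 1 fell in iXEN cells over MEF in ESC medium, Eif3e, an initiation factor subunit (log2 fold change -0.68, edgeR adjusted p = 0.0449), and 0 were called in XEN cells over MEF. Over all genes, 20.8% were called higher and 25.9% lower in iXEN cells, and 11.4% higher and 13.7% lower in XEN cells, which is the background for the list counts that follow too. Their median for XEN over ESC medium in iXEN cells was 0.90, with 20 of 22 positive and 0 called (all genes: median 0.08, 54.2% positive). Of 35 ribosome biogenesis genes, 14 rose and 0 fell in iXEN cells over MEF (median 0.66), and 7 rose and 0 fell in XEN cells over MEF (median 0.65), all in ESC medium. In iXEN cells the 3 largest were Nop10 (1.47, SE 0.29) and Nhp2 (1.33, SE 0.24), both parts of the particles that modify ribosomal RNA, and Nolc1 (1.30, SE 0.25), a chaperone of such particles, and in XEN cells they were Nhp2 (2.92, SE 0.69), Nop10 (2.08, SE 0.34) and Nolc1 (1.76, SE 0.43).

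Of 16 genes of mTOR signalling and TOP mRNA control, 7 rose and 0 fell in iXEN cells over MEF (background 20.8% higher and 25.9% lower), and 2 rose and 1 fell in XEN cells over MEF (background 11.4% higher and 13.7% lower). Mycn, a Myc family factor that drives growth genes, led in both, at 4.38 (SE 0.54) in iXEN cells and 4.40 (SE 0.71) in XEN cells. In iXEN cells Eif4ebp2 (1.13, SE 0.37), which holds back the cap-binding factor, and Max (0.91, SE 0.16), the partner of Myc factors, came next, and Larp1 rose by 0.68 (SE 0.17). In XEN cells Mtor itself fell (-1.02, SE 0.22) and Max rose (0.68, SE 0.19). Of 23 initiation and elongation factors, 3 rose and 1 fell in iXEN cells (Eif2s3x 0.97, Eif1a -0.83, Eif3g 0.76 and Eif4a2 0.69), and 1 rose and 1 fell in XEN cells (Eif3g 1.14 and Eif1a -0.91). Of 12 genes of the p53 response, 0 rose and 2 fell in iXEN cells, Trp53 (-1.03, SE 0.30) and Zmat3 (-0.77, SE 0.23), and Zmat3 fell in XEN cells (-1.07, SE 0.26). No gene of the 5 lists passed the edgeR test in the comparisons between iXEN and XEN cells, between media or in the interaction, where 0 genes of all did.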

How the data were processed

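RNA was taken with Trizol and made into Illumina TruSeq mRNA libraries, per the labels. The values used are the authors' deposited raw counts per gene, 1 file per library. Per the submitters' processing notes, FastQC 0.11.3, Trimmomatic 0.32, TopHat2 2.0.12 and HTSeq 0.6.1 were used with mouse build mm9. Which annotation and strand setting went into the counting is not given in the sources used here. HTSeq's own lines (20.8% to 33.1% of each file) were left out.

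Each comparison was fitted across all genes with edgeR 4.0.16 (R 4.3.3), with the quasi-likelihood test, TMM scaling (factors 0.863 to 1.16), filterByExpr (minimum count 10, total 15) and Benjamini-Hochberg adjustment at 0.05. The SE was derived from the log2 fold change and the root of F, and intervals are 95%. CPM use TMM factors over all 17 libraries. The procedure was tested on simulated data. The labels speak of biological replicates, but p-values measure only the spread between these libraries. Coding length is the median over principal GENCODE transcripts. The lines of XEN numbers 1, 2 and 7 deviated together between media (r of 0.27, 0.33 and 0.62 across genes), although number 1 in XEN medium correlated more with number 2 in ESC medium (0.41), whereas iXEN numbers did not all (0.25, 0.23, 0.17 and -0.11 for numbers 1, 2, 6 and 9), so a number was taken to pair XEN libraries only. Replicates of a group differed by more than counting noise.

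The members and the gene lists were chosen with earlier results of these data known. Values are given per library for members that pass a test (the 5 largest rises and falls), for paralogs with their parents and for members with well known roles; other lists are named by their 3 largest called genes. Rps2, Rps29, Rpl35a, Rpl13, Rps24, Rpl4, Larp1 and Eif4a2, and the members of short lists of calls, were named after their values were seen.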

Additional observations from a re-analysis of the deposited data

Results flagged for a closer look

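Within the iXEN groups of 4 libraries, 1 library stood far from the other 3 for 10 of 86 groups of values looked at. These were 43 items, the family share and named genes, in each of 2 media. Chance flags about 1 in 20 groups, but the members vary together within a library, so the flags are not independent. Any group with the same value in all 4 libraries was counted in the 86 but could not be flagged. iXEN number 6 in ESC medium was the high library in 7 of them. Its values were 2002 CPM for Rps4x (others 932 to 1035), 258 CPM for Rpl36al (others 158 to 170), 171 CPM for Rpl7l1 (others 109 to 118), 2556 CPM for Rpl10 (others 823 to 1006), 1846 CPM for Rpl23 (others 835 to 995), 786 CPM for Rps25 (others 493 to 537) and 1584 CPM for Rps27a (others 697 to 841). Rpl39l was at 0.541 CPM in iXEN number 2 in XEN medium, where the others had 0.0290 to 0.0760 CPM. Rpl3l was at 0.376 CPM in iXEN number 9 in XEN medium (others 0.0902 to 0.114), and Rpl10l at 0.0380 CPM in number 1 (others 0). This Rpl10l value is below the 0.114 CPM that 3 counts came to in that library, so the flag rests on almost no reads.

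The 7 rows of ribosomal protein pseudogenes, which entered no comparison, summed to more than the highest MEF library (19.0 CPM) in 6 libraries. The sums were 32.3 and 67.0 CPM in iXEN numbers 6 and 9 in XEN medium, 22.9 and 25.8 CPM in XEN numbers 2 and 7 in XEN medium, and 43.4 and 70.4 CPM in XEN numbers 1 and 7 in ESC medium. Rps19-ps3 made up most of this in XEN number 7 (58.7 CPM) and in iXEN number 9 (38.3 CPM).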

How the results depend on the processing

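Counts are members called at an edgeR adjusted p under 0.05 unless DESeq2 is named, and the cause of each shift was not tested. For iXEN cells over MEF in ESC medium the main count was 3. It was 8 with DESeq2, 1 with all groups in one fit (Rpl39l, with Rps4l and Rplp1 lost), 13 with the replicate number as a block, 26 with XEN medium libraries, 10 with the coding length trend removed and 5 with both. The median was 1.18 with XEN medium libraries, where Rplp1 turned to 0.61 (adjusted p = 0.378). For XEN cells over MEF the main count was 1. It was 2 with RLE factors, with TMM factors computed without the family, with upper quartile factors (Rpl39l and Rps19bp1 each time), 2 with all groups in one fit (Rpl36al and Rps19bp1, with Rpl39l lost), 7 with DESeq2, 35 with XEN medium libraries and 16 with those and the length trend removed. The median was 0.045 under the replicate block, 0.056 with the length trend removed and 0.11 with XEN medium libraries and that trend removed. Between iXEN and XEN cells in ESC medium DESeq2 called 2, both lower (background 2.64%), and the median was -0.29 with the length trend removed. In XEN medium the median was -0.21 under the replicate block. For XEN over ESC medium in iXEN cells DESeq2 called 47 higher (background 7.18%) and the fit with all groups 6 (background 1.24%). The median there was 0.69 with the length trend removed. For the interaction DESeq2 called 2 higher (background 3.02%) and that median was 0.59. The block changed no other count of calls. Against MEF, and between iXEN and XEN cells, the block fit rests on numbers 1 and 2 alone, which both groups share. A number was taken to pair XEN libraries only, so no conclusion is drawn from these block fits.

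Leaving out 1 library at a time gave counts of 2 to 21 and medians of -0.34 to 0.01 for iXEN over MEF (Rps4l 1.49 to 1.98, Rplp1 -1.24 to -0.83, Rpl39l -4.45 to -2.91). It gave 0 to 25 and 0.16 to 1.20 for XEN over MEF (Rpl39l -5.21 to -3.36), 0 and -1.25 to -0.17 between iXEN and XEN cells in ESC medium, and 0 and 0.26 to 0.72 in XEN medium. It gave 0 and -0.53 to 0.47 for media in XEN cells, 0 to 11 and 1.03 to 1.53 for media in iXEN cells, and 0 and 0.68 to 1.84 for the interaction. Over all genes, these fits called 12.9% to 26.1% higher and 21.2% to 30.3% lower for iXEN over MEF. For the count of 25 the shares were 22.1% and 19.7%, and for the count of 11 they were 1.45% and 1.21%. Members under about 1 CPM rest on a few counts, so small differences in them were not detectable at this depth.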
